A study of Mus musculus with 8 samples.

Results

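Carbonic anhydrases and bicarbonate transporters take part in the control of pH. In mouse embryonic fibroblasts with and without Hif-p4h-1, 9 of their genes were examined in normoxia and in hypoxia. The genes were chosen by name as Car2, Car3, Car9, Car12, Car13, Car14, Slc4a2, Slc4a4 and Slc4a7, with all their probe sets. Earlier results of these data were known at that choice. Of these 9 genes, 8 were read by a probe set named for that gene alone, with 19 probe sets in all, out of 18193 genes and 45037 probe sets on the array. Slc4a7 had no such probe set and is not analysed here. No sodium-proton exchanger was among the 9 genes, and those exchangers are described with the other genes of pH control near the end.

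Fibroblasts were prepared from C57BL6/J embryos at E14.5, either wild type (Hif-p4h-1+/+) or knockout (Hif-p4h-1-/-) for the gene of an oxygen-sensing prolyl hydroxylase that marks the hypoxia-inducible factor (HIF) for degradation, also called Egln2. Both genotypes were sampled in normoxia and in hypoxia, which gave 4 groups of 2 arrays, and the titles place 1 array of each group in a second set. Nothing in the labels says that the sets were separate embryos or cultures, so each p-value reflects array-to-array spread only, and that spread may be technical. The oxygen level, the hours in hypoxia, the kind of knockout allele and the number of embryos pooled are not stated in the labels. All values are log2 expression values per probe set, on which a difference of 1 is a doubling, and each gene is read through its brightest probe set.

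Carbonic anhydrases interconvert carbon dioxide and water with bicarbonate and a proton. Car9, Car12 and Car14 are membrane proteins whose catalytic domain faces the outside of the cell, whereas Car2, Car3 and Car13 are cytosolic. Slc4a2 exchanges bicarbonate for chloride across the plasma membrane, and Slc4a4 and Slc4a7 bring bicarbonate into the cell together with sodium. In cells that turn to glycolysis under low oxygen, surface carbonic anhydrases and bicarbonate uptake help to clear acid. Car9 is a textbook target of HIF, which binds DNA at a short core read as ACGTG or GCGTG.

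The promoters of the cell-surface enzymes and of Slc4a2 are shown because these genes include the ones that rose in hypoxia and one, Car14, that did not pass the test. Each window holds the 250 bases before a start site in the RefSeq table of GRCm38.p6, 5′ to 3′ on the gene's strand, and capitals mark a match to ACGTG or GCGTG. A match on the opposite strand reads as CACGT or CACGC here.
Car9, chr4:43506776-43507025, plus strand: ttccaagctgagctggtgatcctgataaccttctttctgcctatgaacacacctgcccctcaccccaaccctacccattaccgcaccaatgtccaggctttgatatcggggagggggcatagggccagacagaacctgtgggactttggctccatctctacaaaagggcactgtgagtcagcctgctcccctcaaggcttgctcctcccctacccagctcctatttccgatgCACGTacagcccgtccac
Car12, chr9:66713436-66713685, plus strand: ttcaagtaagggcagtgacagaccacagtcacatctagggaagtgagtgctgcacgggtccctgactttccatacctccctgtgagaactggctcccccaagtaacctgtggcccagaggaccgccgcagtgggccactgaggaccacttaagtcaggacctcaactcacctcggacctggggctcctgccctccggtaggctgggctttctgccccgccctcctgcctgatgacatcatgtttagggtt
Car14, chr3:95904686-95904935, minus strand: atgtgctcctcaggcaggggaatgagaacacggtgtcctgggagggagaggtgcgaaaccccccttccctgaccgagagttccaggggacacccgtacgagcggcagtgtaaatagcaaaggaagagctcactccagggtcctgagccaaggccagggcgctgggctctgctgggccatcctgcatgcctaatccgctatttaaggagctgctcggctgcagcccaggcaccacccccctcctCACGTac
Slc4a2, chr5:24424982-24425231, plus strand: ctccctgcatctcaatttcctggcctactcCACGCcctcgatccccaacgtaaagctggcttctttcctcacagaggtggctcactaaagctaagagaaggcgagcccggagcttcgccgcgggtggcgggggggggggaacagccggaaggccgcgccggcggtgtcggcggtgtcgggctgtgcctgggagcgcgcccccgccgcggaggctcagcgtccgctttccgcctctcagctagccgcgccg
The Car9 window held 1 ACGTG on the opposite strand, at -18 to -14 from the start site. The Car14 window held the same letters at -7 to -3, and the Slc4a2 window held 1 GCGTG at -220 to -216, both also on the opposite strand. The Car12 window held neither.

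The RefSeq table had 8 windows for 6 of the 9 genes. A second Slc4a2 window, the Slc4a7 window and 1 of the 2 Slc4a4 windows held neither motif, and the other Slc4a4 window held 1 GCGTG at -119 to -115. Both strands of all 32841 windows of this length were searched, and 16.6% held ACGTG, 28.2% held GCGTG and 38.6% held at least 1 of them. The 6-letter motif CACGTG, which contains ACGTG, was in 6.02%. A match is a description of these letters, not of a binding site, and the share of all windows shows how common such matches are.

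In hypoxia 3 of the 8 measured genes rose over both genotypes: Car9, Car12 and Slc4a2. None fell. Car9 rose by 2.90 ± 0.12 (log2, SE over 8 arrays), which is 7.48-fold, Car12 by 0.96 ± 0.17 or 1.94-fold, and Slc4a2 by 0.87 ± 0.12 or 1.82-fold. Among all genes 28.7% passed the same test in either direction, so 3 of 8 is a share near that background. Called higher were 1854 of all genes, and called lower 2068. The median difference of the 8 genes was 0.46, against 0.01 over all 13647 genes tested. It lies between Car3 (0.42) and Slc4a4 (0.49), neither of them called, while Car2, Car13 and Car14 differed by -0.04, 0.03 and -0.05. Because earlier results of these data were known when the genes were chosen, the medians are not an independent comparison. Tests were made with limma over all genes, with the set as a replicate block and a Benjamini-Hochberg adjusted p under 0.05 as the threshold. Without that block Car9 was the 1 member called.

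Car9 had the largest difference of the 8 genes. In wild-type cells its log2 values were 3.78 and 4.14 in normoxia and 6.76 and 6.92 in hypoxia, each pair being the first and the second set. In knockout cells they were 3.96 and 4.02 in normoxia and 6.56 and 7.27 in hypoxia. The 4 hypoxic arrays all lay above the 4 normoxic arrays, and the genotypes overlapped in each condition. The wild-type rise of Car9 was 2.88 ± 0.18 (adjusted p = 1.1e-04) and its knockout rise 2.92 ± 0.18 (adjusted p = 1.4e-04), with an adjusted p of 7.6e-06 over both genotypes. The normoxic means of 3.96 ± 0.25 (SD, n = 2) in wild type and 3.99 ± 0.04 in knockout lay below the limit of 4.17 under which genes were left out, so Car9 entered the test through its hypoxic arrays. At such dim values the array shows little of a lower level, and the fold may be understated.

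Car12, the other surface enzyme that rose, is a transmembrane relative of Car9. Wild-type cells gave 6.20 and 4.72 in normoxia and 6.80 and 6.20 in hypoxia, in the first and the second set. In knockout cells it read 6.77 and 5.02 in normoxia and 7.39 and 6.15 in hypoxia. Within each set the hypoxic array was the higher one in both genotypes, by 0.60 to 1.48 over the 4 pairs, but the ranges over both sets overlapped, at 4.72 to 6.77 in normoxia and 6.15 to 7.39 in hypoxia. The adjusted p was 0.00463 over both genotypes. The wild-type rise of 1.04 ± 0.24 passed the test (adjusted p = 0.0239), and the knockout difference of 0.88 ± 0.24 did not (adjusted p = 0.0571). The wild-type call was lost without the first-set normoxic array (1.18, adjusted p = 0.0891), without the second-set normoxic array (0.90, adjusted p = 0.143) or without the second-set hypoxic array of wild type (0.60, adjusted p = 0.115). It was also lost with the set as a random block (adjusted p = 0.0930) and with the mean of all Car12 probe sets (0.35, adjusted p = 0.123). The knockout difference passed with quantile normalization added (0.885, adjusted p = 0.0499) and with the arrays centred on their medians (0.905, adjusted p = 0.0457). It also passed without either wild-type hypoxic array, at 0.88.

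Car14, the third surface enzyme, did not pass the test. Its 8 values lay between 5.02 and 5.52, and it was higher in hypoxia in 1 of 4 pairs. The difference over both genotypes was -0.05 ± 0.11, with a 95% confidence interval from -0.315 to 0.21 (adjusted p = 0.780). The 3 surface enzymes therefore had 1 large, 1 moderate and 1 undetected difference in the same cells.

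Slc4a2, the chloride-bicarbonate exchanger AE2, had the smallest adjusted p after Car9, at 0.00142 over both genotypes. Wild-type cells gave 6.87 and 8.07 in normoxia and 7.77 and 9.03 in hypoxia, in the first and the second set. In knockout cells it read 7.41 and 7.97 in normoxia and 7.99 and 9.0 in hypoxia. It was higher in hypoxia in 4 of 4 pairs, by 0.58 to 1.03, while the ranges over both sets overlapped between 7.77 and 8.07. The wild-type rise was 0.93 ± 0.16 (adjusted p = 0.00924), and the knockout rise was 0.81 ± 0.16 (adjusted p = 0.0223). The wild-type call was lost without the first-set normoxic array (0.80, adjusted p = 0.0822) or the second-set hypoxic array of wild type (0.76, adjusted p = 0.0640). The knockout call was lost without the first-set hypoxic, the second-set normoxic or the second-set hypoxic knockout array (adjusted p = 0.101, 0.138 and 0.157), with the difference at 0.51 without the second-set normoxic one. With the set as a random block, whose correlation was estimated at 0.622, neither call held (adjusted p = 0.0580 in wild type and 0.117 in knockout).

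Slc4a4, the electrogenic sodium bicarbonate cotransporter NBCe1, had a smaller difference. On its brightest probe set, wild-type cells gave 7.31 and 7.10 in normoxia and 7.58 and 7.78 in hypoxia, in the first and the second set. In knockout cells it read 7.59 and 6.55 in normoxia and 7.80 and 7.35 in hypoxia. All 4 pairs were higher in hypoxia, by 0.21 to 0.80. The difference over both genotypes was 0.49 ± 0.17, with a 95% confidence interval from 0.0943 to 0.886, and it missed the threshold (adjusted p = 0.0666). It passed without the first-set normoxic knockout array (0.71) or the first-set hypoxic wild-type array (0.68). It also passed with the mean of all its probe sets (0.51, adjusted p = 0.0263). A filter at the 50th percentile (adjusted p = 0.0483) and arrays centred on their medians (adjusted p = 0.0466) gave a call as well.

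**Figure D1:**
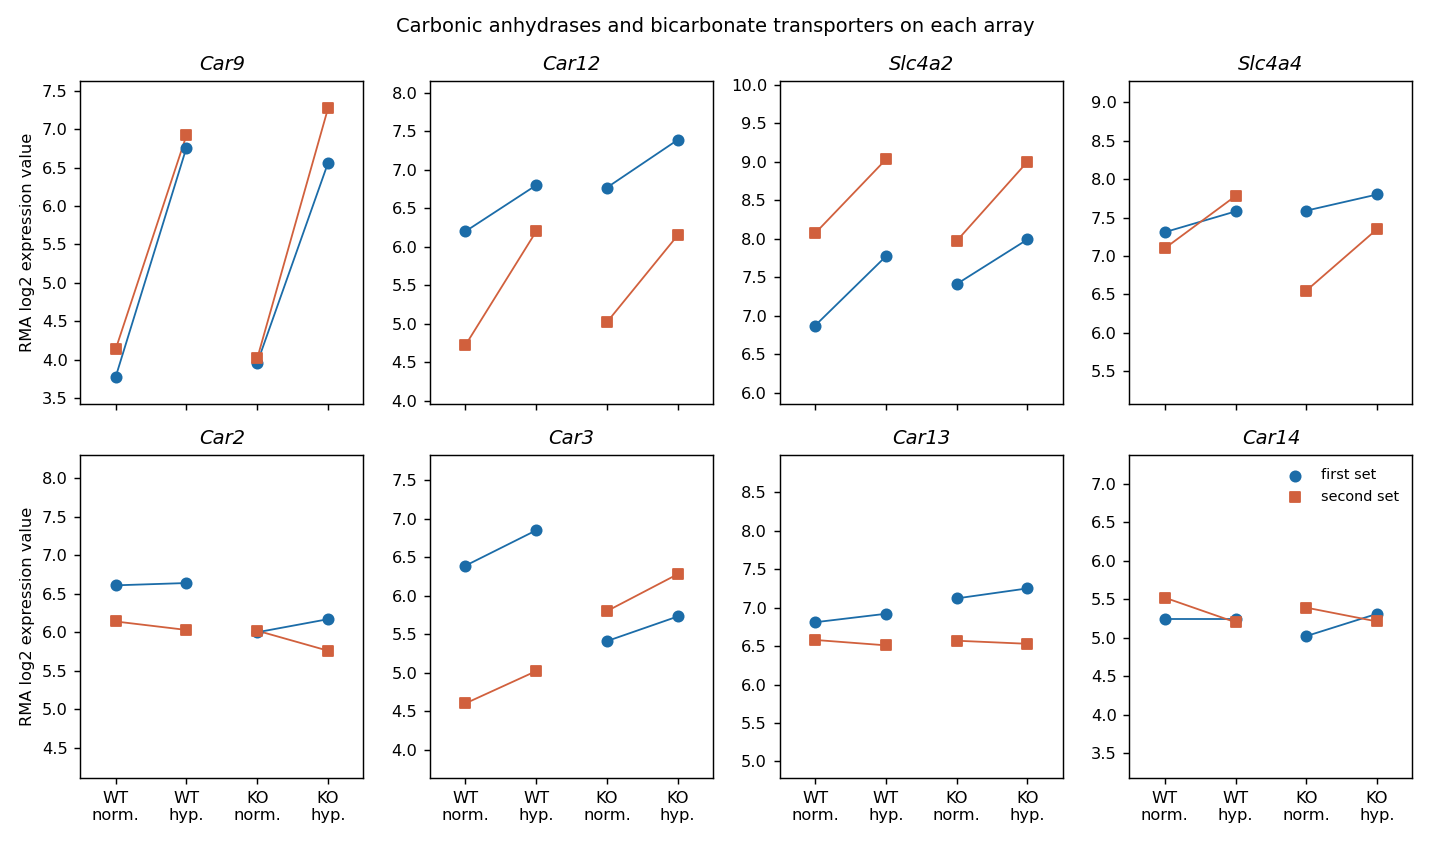
Log2 expression of the 8 measured genes on each of the 8 arrays, with 1 panel per gene, the 4 groups along the x axis and a separate marker for each set; lines join the normoxic and the hypoxic array of the same genotype and set. Car9 shows no overlap between normoxic arrays (3.78 to 4.14) and hypoxic arrays (6.56 to 7.27), whereas Car12 and Slc4a2 rise within each set but differ between sets.

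Of the cytosolic enzymes, Car2, Car3 and Car13, none passed the test in hypoxia. Car2, the fast and widespread form, gave 6.61 and 6.14 (normoxia) and 6.64 and 6.03 (hypoxia) in wild-type cells. In knockout cells it gave 6.0 and 6.02 (normoxia) and 6.17 and 5.76 (hypoxia). It was higher in hypoxia in 2 of 4 pairs, and the difference was -0.04 ± 0.12 with a 95% confidence interval from -0.312 to 0.227 (adjusted p = 0.830). Car13 lay between 6.51 and 7.25 on all arrays and differed by 0.03 ± 0.10, with an interval from -0.198 to 0.263 (adjusted p = 0.849). Both intervals end below the 0.87 of Slc4a2, the smallest of the 3 rises.

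Car3, a form of low activity that is abundant in muscle and fat, was more variable. Wild-type cells gave 6.39 and 4.60 in normoxia and 6.85 and 5.02 in hypoxia, in the first and the second set. Knockout cells gave 5.41 and 5.80 in normoxia and 5.73 and 6.28 in hypoxia. It was higher in hypoxia in 4 of 4 pairs, by 0.32 to 0.48, which is a narrow range beside the wild-type gap between sets of over 1. The fitted difference of 0.42 ± 0.41 had a 95% confidence interval from -0.515 to 1.36 and did not pass the test (adjusted p = 0.497). The fit holds 1 set effect for all groups, and the Car3 sets differed in opposite directions in the genotypes, as described with the genotype comparison.

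**Figure D2:**
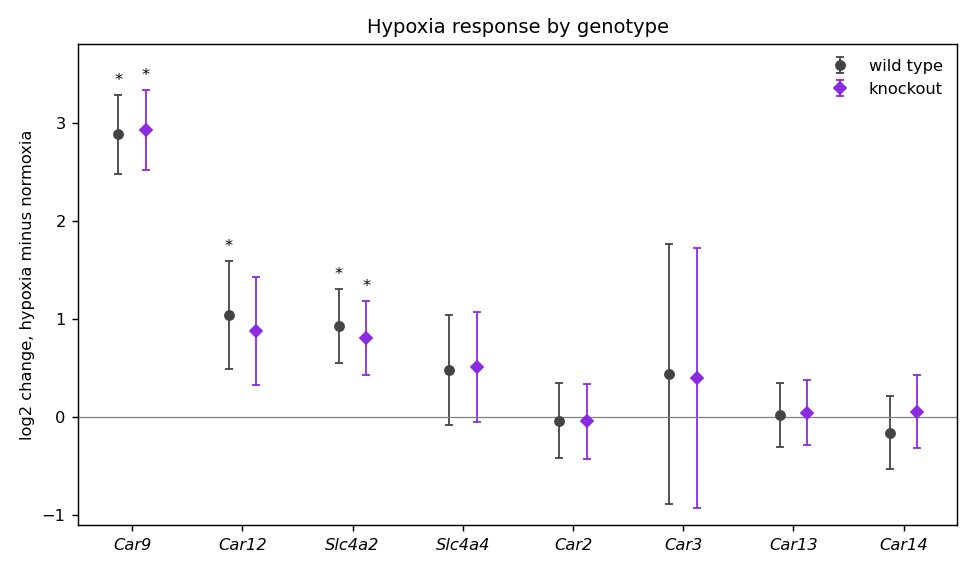
Log2 difference of hypoxia minus normoxia (y axis) for each of the 8 genes, with circles for wild type, diamonds for knockout and bars for 95% confidence intervals from the fit; an asterisk marks an adjusted p under 0.05. Car9 stands at 2.88 and 2.92, both genotypes lie close together for each gene, and the bars of Car3 are the widest.

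In wild type alone 3 of 8 genes were called, all higher, against 16.4% of all genes called in either direction. Of all 13647 genes 1029 were called higher there. In knockout alone 2 of 8 were called, both higher, against 10.1% in either direction and 680 genes called higher. The median difference of the 8 genes was 0.46 in wild type and 0.45 in knockout, beside -0.01 and 0.02 over all genes. Control probe sets for RNA quality moved with hypoxia. The 3′ minus 5′ difference of the Actb control probe sets was higher in hypoxia by 0.10 to 0.17 in 4 of 4 pairs, and the Gapdh difference by 0.04 to 0.33, likewise in 4 of 4. Their part in the results was not tested.

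The probe sets of a gene did not all give the same value. A fit over all 45037 probe sets without a filter called 6 of the 19 higher over both genotypes and none lower. Of all probe sets 15.8% were called in either direction, as are the shares that follow. In wild type it called 4 of 19, against 7.29%, and in knockout 2 of 19, against 4.67%. Of the 5 Slc4a4 probe sets, 2 passed over both genotypes: 1421225_a_at rose by 1.00 ± 0.19 (adjusted p = 0.00896) and 1426432_a_at by 0.70 ± 0.13 (adjusted p = 0.00925). The brightest, 1434096_at, differed by 0.49 (adjusted p = 0.0967) and 1452071_at by 0.34 (adjusted p = 0.150).

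The Slc4a4 probe set with the largest difference, 1421225_a_at, gave 6.25 and 6.30 in normoxia and 7.32 and 7.45 in hypoxia in wild-type cells, in the first and the second set. In knockout cells it read 6.81 and 5.80 in normoxia and 7.57 and 6.83 in hypoxia. The 4 hypoxic arrays, at 6.83 to 7.57, lay above the 4 normoxic arrays, at 5.80 to 6.81, with a gap of 0.02. Its call was lost without the first-set normoxic wild-type array (0.86, adjusted p = 0.0559), and that of 1426432_a_at without the second-set one (adjusted p = 0.0520). Which transcripts each probe set reads was not used here.

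Car13 and Car12 also differed between their probe sets. The dimmest Car13 probe set, 1439620_at, gave 3.24 and 4.12 (normoxia) and 4.0 and 4.76 (hypoxia) in wild-type cells. In knockout cells it gave 4.12 and 4.10 (normoxia) and 4.67 and 4.66 (hypoxia). It rose by 0.63 ± 0.18 (adjusted p = 0.0449), a call that was lost in 6 of the 8 fits that left out 1 array, while the brighter 1421308_at differed by 0.22 (adjusted p = 0.405). The second Car12 probe set, 1447762_x_at, lay between 4.79 and 5.03 on all arrays and differed by -0.02 (adjusted p = 0.958), so the Car12 rise rests on 1 of its 3 probe sets. With the mean of all Car12 probe sets the difference was 0.29 (adjusted p = 0.0526). The 4 member probe sets with a mean below 4.17, from Car3, Car12 and Slc4a4, differed by -0.07 to 0.04, and none was called (lowest adjusted p = 0.717). Car3 1460256_at differed by 0.14 (adjusted p = 0.636).

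**Figure D3:**
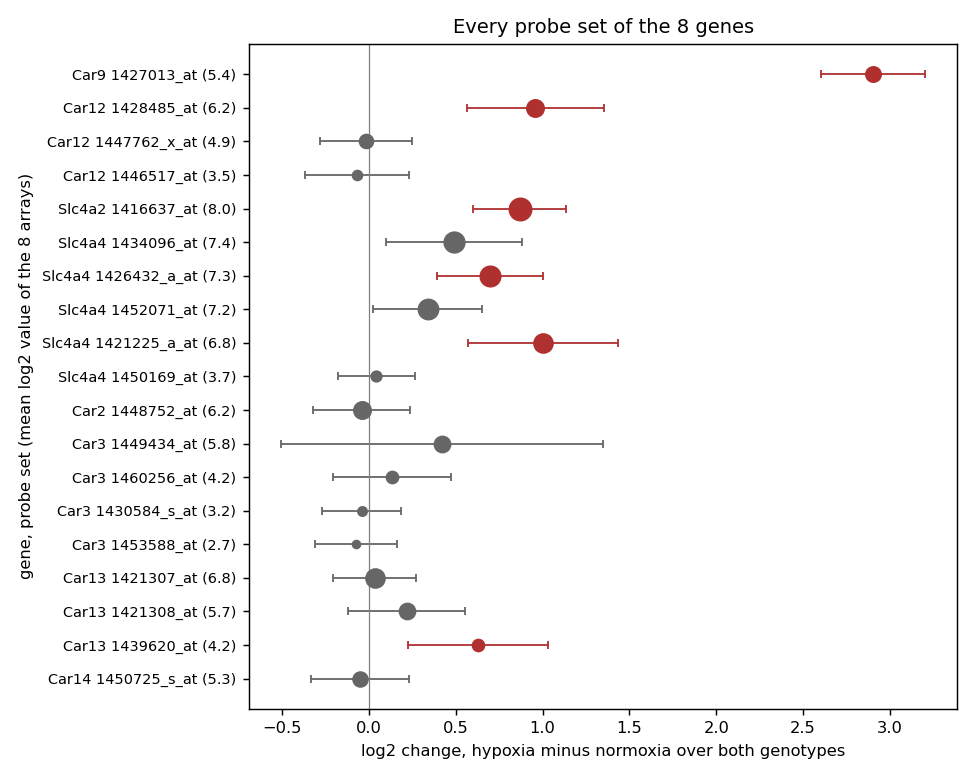
Log2 difference of hypoxia minus normoxia over both genotypes for the 19 probe sets, ordered by gene, with 95% confidence intervals from the fit of all probe sets; red points passed the test, grey ones did not, and point size follows the mean log2 value given in brackets. Within Slc4a4 the differences reach 1.00 and within Car12 one probe set stands at 0.96 while another stands at -0.02.

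Loss of Hif-p4h-1 gave no called member. With limma, 0 of 8 genes passed in normoxia, in hypoxia or over both oxygen conditions, against 0.0366%, 0.0293% and 0.256% of all genes, so few genes of any kind were called in these comparisons. Over both oxygen conditions the unadjusted p was under 0.05 for 1 of the 8 genes, Car2, and for 1396 of the 13647 genes. In normoxia and in hypoxia alone it was under 0.05 for none of the 8 genes, and for 914 and 753 of all genes. The median difference of knockout minus wild type was 0.07 for the 8 genes and -0.01 for all genes. The targeted gene itself, Egln2, read 8.84 and 9.07 in normoxic wild-type cells and 8.0 and 8.34 in normoxic knockout cells, and fell by 0.79 ± 0.09 (adjusted p = 0.0489), a call that was lost in each of the 8 fits without 1 array. In hypoxia wild-type cells gave 8.95 and 9.13 and knockout cells 8.66 and 8.85, so its transcript was still read in knockout cells, and whether its probe set lies in the deleted part is not stated in the labels. In hypoxia alone the Egln2 difference of -0.285 ± 0.09 did not pass (adjusted p = 0.725). Over both oxygen conditions it was -0.535 ± 0.06 (adjusted p = 0.0225), but no gene passed there without the replicate block. Egln2 rose in hypoxia in knockout by 0.585 ± 0.09 (adjusted p = 0.00919), and in wild type it differed by 0.085 (adjusted p = 0.575).

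Car2 was lower in knockout than in wild type in 4 of 4 pairs. The pairs differed by -0.61 in normoxia and -0.47 in hypoxia in the first set, and by -0.12 and -0.27 in the second. The fitted difference was -0.37 ± 0.12 with a 95% confidence interval from -0.637 to -0.0978 and did not pass the test (adjusted p = 0.349, unadjusted p = 0.0136). Car2 is also expressed in osteoclasts and other cells of the macrophage lineage. Averaged over normoxia and hypoxia, 10 of 10 macrophage and leukocyte markers were lower in knockout in the first set and 9 of 10 in the second. Their summed level (log2 of the summed linear values) was 10.1 to 11.8 in wild-type and 9.12 to 10.0 in knockout arrays, and the lowest marker, Itgam, averaged 3.52. The 7 osteoclast markers summed to 9.92 to 10.6 in wild type and 9.86 to 10.6 in knockout, and the sum was lower in knockout in 4 of 4 pairs (-0.27, -0.06, -0.06 and -0.09). Their part in the Car2 difference was not tested, and in such bulk samples fewer cells of a type and less RNA per cell cannot be told apart.

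Car3 differed between genotypes in opposite directions in the sets. In the first set knockout was lower by 0.98 in normoxia and by 1.12 in hypoxia, and in the second it was higher by 1.20 and 1.26. The fitted difference was 0.09 ± 0.41 (adjusted p = 0.966), and this mean describes neither set. Skeletal muscle markers also differed by set. Averaged over normoxia and hypoxia, 10 of 10 were lower in knockout in the first set and 1 of 10 in the second, and their summed level differed by -1.96 and -1.81 in the first set and by 0.12 and 0.19 in the second, in normoxia and hypoxia. Their summed level was 11.1 to 11.7 in wild type and 9.72 to 11.7 in knockout, with Myod1 the lowest at a mean of 4.02. The 6 adipocyte markers with a probe set summed to 9.84 to 10.5 in wild type and 9.58 to 9.95 in knockout. The sum was lower in knockout in 4 of 4 pairs (-0.56 to -0.18). Single markers were mixed, with 4 of the 6 lower in knockout in each set, averaged over normoxia and hypoxia. Lpl was the brightest at a mean of 9.13 and Cidec the lowest at 3.05. The part of these cells in the Car3 values was not tested.

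The genes that rose in hypoxia did not differ detectably between genotypes. Car9 differed by 0.05 ± 0.12, with a 95% confidence interval from -0.233 to 0.338 (adjusted p = 0.933). Car12 differed by 0.35 ± 0.17, with a wider interval from -0.0392 to 0.744 (adjusted p = 0.530), and was higher in knockout in 3 of 4 pairs. Slc4a2 differed by 0.16 ± 0.12, with an interval from -0.109 to 0.424 (adjusted p = 0.704). Slc4a4 differed by -0.12 ± 0.17 (adjusted p = 0.874), higher in knockout by 0.28 and 0.22 in the first set and lower by 0.55 and 0.43 in the second. Car13 differed by 0.16 (adjusted p = 0.642) and Car14 by -0.07 (adjusted p = 0.901).

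**Figure D4:**
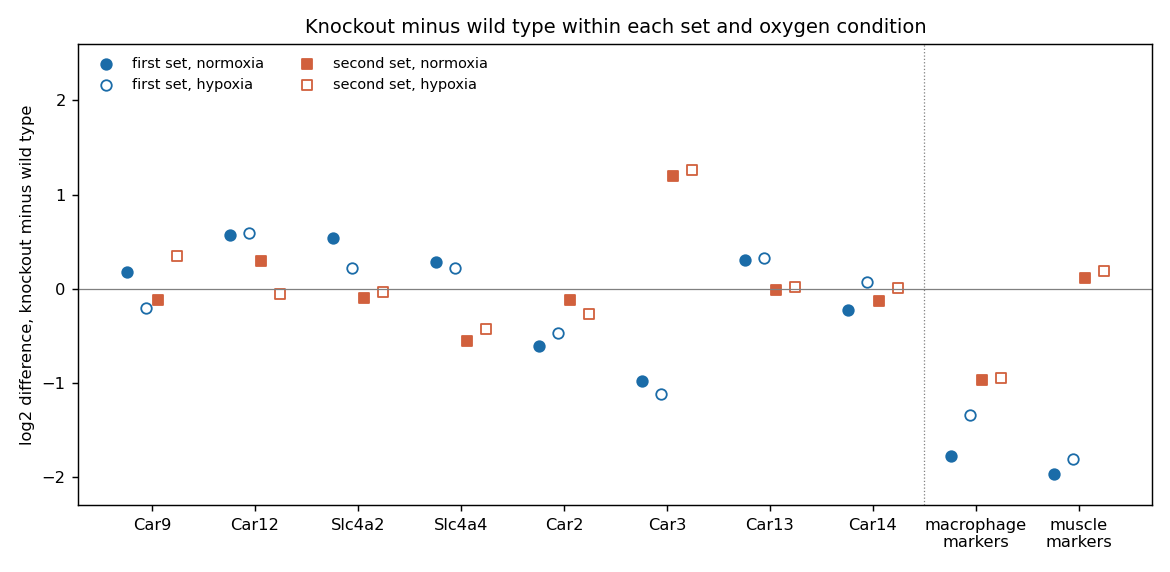
Log2 difference of knockout minus wild type for the 8 genes and for the summed macrophage and muscle markers, with circles for the first and squares for the second set, filled in normoxia and open in hypoxia. Car2 is below 0 at all 4 points, from -0.61 to -0.12, and Car3 is near -1 in the first set and above 1 in the second.

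The response to hypoxia was compared between genotypes by the interaction term, the knockout response minus the wild-type response. No member was called, and neither was any of the 13647 genes (0%), of which 329 had an unadjusted p under 0.05 with limma, none of them a member. The term was 0.05 for Car9, with a 95% confidence interval from -0.526 to 0.616. That interval gives the precision of the estimate and is not a limit of detection. Larger terms also went uncalled, such as -0.925 for Slc16a3. For Car12 it was -0.17 (-0.948 to 0.618), for Slc4a2 -0.12 (-0.658 to 0.408) and for Slc4a4 0.03 (-0.761 to 0.821). The Car12 rise passed in wild type and not in knockout, and this term gives no difference between them beyond its error.

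The sets differed for 4 of the 8 genes, with 46.1% of all genes called in the same comparison. Slc4a2 was higher in the second set by 1.01 ± 0.12 (adjusted p = 2.4e-04), and Car12 was lower there by 1.27 ± 0.17 (adjusted p = 5.4e-04). Both estimates exceed the same gene's response to hypoxia in size, a difference that was not tested. Without the replicate block, which removes them, Car12 and Slc4a2 kept their differences but not their calls (adjusted p = 0.467 and 0.399), and Car9 kept its call (adjusted p = 0.00298). Car13 was lower in the second set by 0.48 ± 0.10 (adjusted p = 0.00503), which the mean of all its probe sets did not show (-0.12, adjusted p = 0.480). Car2 was lower by 0.37 ± 0.12 (adjusted p = 0.0323), a call lost in 6 of the 8 fits without 1 array. Car9, Slc4a4, Car3 and Car14 did not pass (0.32, -0.38, -0.67 and 0.13).

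Car9, Car12 and Slc4a2 were each called higher in hypoxia, so high correlations between them over arrays of both oxygen conditions follow from that choice. With the mean of each set removed, the Pearson correlation over the 8 arrays was 0.944 between Car9 and Slc4a2. It was 0.952 between Car12 and Slc4a2 and 0.867 between Car9 and Car12. Slc4a4, which was not called, correlated at 0.838 with Slc4a2, 0.791 with Car12 and 0.727 with Car9. These values describe arrays that share groups and sets. By the same measure the genes most like Car9 among all those tested were Dusp7 (0.997), Chmp7 (0.997), Tpi1 (0.995), Rab5c (0.995) and Rac1 (0.994). Those most like Slc4a2 were Gnas (0.997), Actn4 (0.996), Oxr1 (0.995), P4ha3 (0.992) and Txlna (0.991).

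Car2, Car3 and Car13 lie in 1 cluster on chromosome 3, where the RefSeq table gives the protein-coding order Car13, Car1, Car3, Car2. On its brightest probe set none of the 3 was called in hypoxia, with differences of -0.04, 0.42 and 0.03. Car3 was higher in hypoxia in 4 of 4 pairs, and Car2 and Car13 in 2 of 4 each. The dimmest Car13 probe set, 1439620_at, was called higher (0.63, adjusted p = 0.0449). Their difference between genotypes was -0.37, 0.09 and 0.16. The correlation of Car2 with Car13 over the 8 arrays, with set means removed, was -0.707, and that of Car2 with Car3 was 0.258.

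The other genes of pH control were read from a list of 78 genes in 6 functional groups, of which 48 were tested. Over both genotypes 10 rose in hypoxia and 3 fell, and these 13 of 48 are a share near the 28.7% of all genes. Lactate and proton cotransport held the largest rise: Slc16a3, the lactate exporter MCT4, rose by 2.88 ± 0.13 (adjusted p = 1.1e-05), beside 2.90 for Car9. Slc16a3 read 4.50, 5.20, 3.99 and 5.07 on the normoxic arrays and 7.48, 7.47, 7.69 and 7.63 on the hypoxic ones, each in the order wild type and knockout of the first set and then of the second. Bsg, the chaperone that brings MCT4 to the membrane, rose by 0.70 ± 0.06 (adjusted p = 2.9e-04), and Emb, a related chaperone, fell by 0.45 ± 0.09 (adjusted p = 0.00884). With the mean of all its probe sets Emb differed by -0.16 and was no longer called. In this group 2 of 6 tested genes rose and 1 fell, with a median of 0.10 against 0.01 over all genes.

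Of the other carbonic anhydrases 6 of 10 were tested and 1 rose. That gene was Car8, a relative without carbonic anhydrase activity, at 1.42 ± 0.16 (adjusted p = 8.4e-04). Wild-type cells gave 4.73 and 7.53 in normoxia and 6.88 and 8.58 in hypoxia, in the first and the second set, and knockout cells 4.98 and 7.44 in normoxia and 6.42 and 8.46 in hypoxia. The rise stood within each set, by 1.80 in the first and 1.04 in the second, although normoxic arrays of the second set lay above hypoxic arrays of the first. Its other probe sets differed by 0.07 and 0.20.

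Of the other bicarbonate transporters 8 of 15 were tested, and Slc4a3, the anion exchanger AE3, fell by 0.47 ± 0.13 (adjusted p = 0.0306). Of the sodium-proton exchangers and their regulators 4 of 13 were tested, and Slc9a3r1, a scaffold protein that binds the exchanger of epithelia, fell by 0.44 ± 0.14 (adjusted p = 0.0481). Each of these calls was lost in 6 of the 8 fits without 1 array and with the mean of all probe sets (adjusted p = 0.0949 and 0.0934). The group medians were 0.00 and -0.06 beside 0.01 over all genes.

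Of the subunits of the vacuolar proton pump, which acidifies lysosomes and endosomes, 19 of 25 were tested, 7 rose and 12 did not pass, beside 1854 of all 13647 genes that rose and 28.7% called in either direction. The rises were small. Atp6v0b, a subunit of the membrane part, rose by 0.39 ± 0.06 (adjusted p = 0.00245) and Atp6v1g1, a subunit of the cytosolic part, by 0.32 ± 0.05 (adjusted p = 0.00184). Atp6ap2, an accessory protein, rose by 0.24 ± 0.05 (adjusted p = 0.00928) and Atp6v1f by 0.23 ± 0.05 (adjusted p = 0.0107), and both calls were lost without the first-set normoxic knockout array. The other probe sets of Atp6v1g1 differed by -0.17 and 0.15, and with the mean of its probe sets it was not called. The group median was 0.11. None of the 5 tested proton-sensing receptors and channels, of 9 listed, was called, with a median of -0.11.

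**Figure D5:**
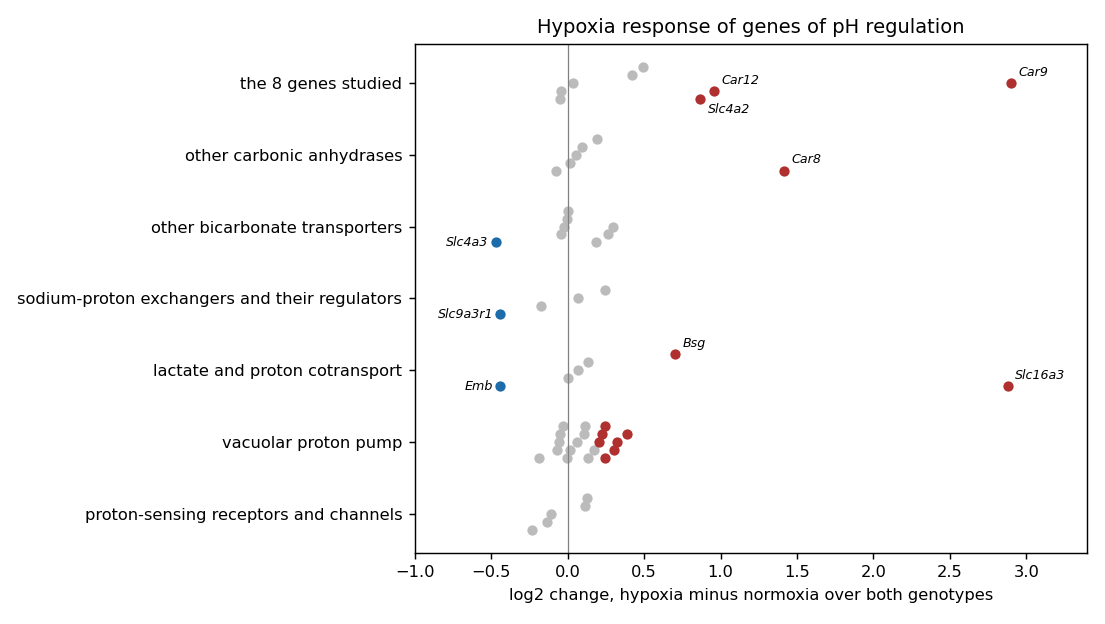
Log2 difference of hypoxia minus normoxia over both genotypes for the 8 genes and the tested genes of the 6 other groups of pH control, with 1 point per gene, red for genes called higher, blue for genes called lower and grey for the rest. Slc16a3 at 2.88 and Car8 at 1.42 stand apart, and the 7 proton pump subunits that passed were all higher.

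No gene of these 6 groups was called between genotypes or in the interaction. Slc16a3 rose by 3.34 ± 0.19 in wild type and by 2.415 ± 0.19 in knockout. The interaction term of -0.925 had an unadjusted p of 0.00735 with limma and was negative in both sets (-0.71 and -1.14). With limma its normoxic level was higher in knockout by 0.89 ± 0.19 (unadjusted p = 0.00124, adjusted p = 0.325). In hypoxia the genotypes differed by -0.035. The wild-type normoxic arrays, at 4.50 and 3.99, lay near the limit of 4.17 for dim genes. Of the 10 genes named from these groups, Slc16a3 alone was still called in hypoxia without the replicate block, and the adjusted p of the other 9 lay between 0.176 and 0.602. The fibroblast identity of the cells was read from 11 of 12 listed markers with a probe set, all above the limit for dim genes, from Lum at a mean of 7.25 to Col1a2 at 14.4. Of the erythroid list, which bears on Car2, 5 of 8 genes had a probe set and 1 lay above that limit, with Klf1 the highest at 4.58 and Hba-a1 the lowest at 3.31. The 7 chondrocyte markers summed to 8.72 to 9.50 in normoxia and to 8.99 to 9.57 in hypoxia and were higher in hypoxia in 4 of 4 pairs, and 3 of the 7 were higher on average. The erythroid sum was also higher in hypoxia in 4 of 4 pairs (0.06 to 0.13). The sums of the osteoclast (-0.34 to -0.13), skeletal muscle (-0.48 to -0.02) and fibroblast markers (-0.15 to -0.06) were lower in hypoxia in 4 of 4 pairs. On average, however, 8 of 10 skeletal muscle markers were higher in hypoxia, while the brightest, Acta1, differed by -0.395. Of the osteoclast markers 3 of 7 were higher on average, and of the fibroblast markers 3 of 11. The part of these cells in the hypoxia results was not tested. The 7 epithelial markers summed to 8.91 to 8.99 in wild type and 8.36 to 8.68 in knockout. Array medians were 5.01 to 5.12.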

How the data were processed

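Total RNA of the 8 samples was labelled with biotin and hybridised to 1-colour Affymetrix arrays, per the labels. The deposited table holds log2 values per probe set that the authors made with RMA, per the submitters' processing notes. RMA brings the arrays to a common distribution, so a shift shared by all transcripts cannot be seen. No source used here states if RMA was run once on all arrays. Of 45037 probe sets, 34945 carried 1 gene symbol, 9160 had no name and 932 with several symbols were left out. Symbols were updated through Entrez identifiers in the RefSeq table of GRCm38.p6, where 34741 probe sets were found.

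A limma fit (limma 3.58.1, R 4.3.3) modelled the 4 group means plus the set as a replicate block, followed by eBayes with trend. It used the brightest probe set per gene for 13647 genes with a mean at or above the 25th percentile. It left 3 residual degrees of freedom, and the prior added 5.22. A further fit held all probe sets. The set difference of 1 group correlated with that of another at 0.710 to 0.850 over 6 pairs of groups, so sets were treated as pairs. The script was tested on simulated data. The number of arrays limits the precision. The genes and lists were chosen with earlier results of these data known. Named outside the 9 were up to 4 called genes per group of pH control with the smallest adjusted p, Egln2, the 5 genes most like Car9 and Slc4a2, and the brightest and dimmest markers of a list. Alternatives changed the block, filter, probe set rule and scaling, or left out 1 array.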

Additional observations from a re-analysis of the deposited data

Results flagged for a closer look

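In 5 cases the sets moved in opposite directions, with both pairs of one set on one side of 0 and both pairs of the other set on the other side, and these differences between sets were not tested. For Car3, the second set minus the first set differed by 2.28 in knockout minus wild type (-1.05 in the first set, 1.23 in the second). For Slc4a4 the same difference was -0.74 (0.25 and -0.49), and for Slc4a2 it was -0.445 (0.38 and -0.07). In hypoxia minus normoxia, Car2 differed by -0.285 between sets (0.10 and -0.18) and Car13 by -0.175 (0.12 and -0.06).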

How the results depend on the processing

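Where it was tested, Car9 kept its call in the 3 hypoxia comparisons under every alternative run, and over both genotypes Car12 and Slc4a2 kept theirs in all 8 fits that left out 1 array. For single genes and probe sets, outside the left-out arrays, 256 values kept direction and side of the threshold, 34 lost and 6 gained a call and 1 changed sign. Centring the arrays on their medians moved the median of all genes by at most 0.06. For dim probe sets, such as Car9 in normoxia, signal near background limits what a fold can show. Why the values changed was not tested.

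Without the replicate block, members called fell from 3 to 1 in wild type, from 2 to 1 in knockout and from 3 to 1 over both genotypes, member probe sets to 1, and genes called to 20, 12 and 99, with 0, 0 and 0 in the genotype comparisons (normoxia, hypoxia, both). With a random replicate block there were 1 and 1 members and 1133 and 517 genes in wild type and knockout, and 0, 0 and 0 genes in the genotype comparisons. A filter at the 50th percentile left out Car2, Car3, Car9, Car12 and Car14. Among Car13, Slc4a2 and Slc4a4, which remained, it called 1 in wild type, 1 in knockout and 2 between sets. It called 11 genes for knockout minus wild type in normoxia. The mean of all probe sets gave 1473 genes in wild type, 8 for knockout minus wild type over both, and a Slc4a4 interaction of -0.06. Centring gave 3 genes for knockout minus wild type in normoxia.

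Leaving out 1 array gave 1 to 3 members in wild type, 1 to 3 in knockout, 3 to 4 over both and 3 to 4 between sets, and 4 to 7 probe sets. Genes called were 490 to 1975 in wild type, 121 to 1335 in knockout and 2554 to 3315 over both. In the genotype comparisons (normoxia, hypoxia, both) they were 0 to 3, 0 to 5 and 3 to 58, and 5076 to 5589 between sets. Signs turned over both genotypes in hypoxia for Car12 1447762_x_at (-0.0883 to 0.0583), Car13 (-0.05 to 0.115), Car14 (-0.133 to 0.0283), Car2 (-0.172 to 0.0867) and Car3 1460256_at (-0.0183 to 0.288). They turned in knockout minus wild type for Car14 (-0.148 to 0.0133), Car3 (-0.317 to 0.497), Car9 (-0.0767 to 0.182) and Slc4a4 (-0.342 to 0.102). They turned in the interaction for Car12 (-0.61 to 0.28), Car9 (-0.213 to 0.303), Slc4a2 (-0.423 to 0.173) and Slc4a4 (-0.413 to 0.473).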
